A study of Mus musculus with 48 samples.

Results

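The comparison was between *Pparα*-/- mice fed a HFD and *Pparα*-/- mice fed the CTRL diet, in the liver. Its members were the arrays whose labels give the genotype PPARaKO, with 8 mice on the CTRL diet and 8 on the HFD, so 16 of the 48 mice of the series. The series measured liver RNA of male C57Bl6J mice on Agilent 1-colour arrays, with 1 array per mouse. It held 8 mice per diet of each of the genotypes *WT*, *Pparα*-/- and *Pparα*hep-/-, the last carrying an albumin-driven Cre that deletes the gene in hepatocytes. In the HFD fat supplied 60% of the energy, and the CTRL diet was low in fat. By the labels both groups were 20 weeks old and had been on their diet for 12 weeks, while the study's text gives a shorter feeding period, at thermoneutrality. *Pparα*-/- mice have lacked the receptor in every cell since conception, so these arrays cannot separate the liver's own response to the diet from responses set in adipose tissue, gut or immune cells. The labels name no litters or cages, and p-values measure the spread between mice.

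PPARα is a nuclear receptor that fatty acids activate. In hepatocytes it turns on the genes of mitochondrial and peroxisomal fatty acid oxidation and of ketone body synthesis, above all when lipid reaches the liver from adipose tissue or the diet. Other lipid sensors act in the same cells, among them PPARγ, which drives lipid storage genes in fatty liver, LXR and SREBP1c, which drive fatty acid synthesis, and SREBP2, which drives cholesterol synthesis.

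*Ppara* itself was read by 2 probes. With the brighter probe (chr15:85632110-85632169, mm9), *Ppara* lay between 13.53 and 14.09 (median 13.92) in CTRL mice and between 13.83 and 14.27 (median 14.03) in HFD mice, which gave a log2 change of 0.09 ± 0.088 (SE, adjusted p = 0.4901). With the other probe (chr15:85637193-85637252, mm9) the CTRL mice lay between 11.36 and 11.87 and the HFD mice between 11.88 and 12.27, with a log2 change of 0.30 (adjusted p = 0.00636). The 2 diets thus overlapped at 1 probe and did not at the other. Both probes gave clear signal in mice that lack the receptor, and whether they fall inside the deleted part of the gene was not known here, so the presence of signal is no check of the genotype labels. In *WT* mice the dimmer probe lay between 12.36 and 13.24 on CTRL and between 12.86 and 13.51 on HFD, above the *Pparα*-/- mice of the same diet. The brighter probe lay between 14.03 and 15.07 and between 14.65 and 15.24 in *WT* mice, which overlapped *Pparα*-/- mice on CTRL and not on HFD.

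The 16 arrays came from both wash batches of the series, with 4 mice of each diet in each. One CTRL mouse, number 2, stood apart. It lay beyond the HFD median for 998 of the 2576 genes that were higher on HFD (38.7%) and for 421 of the 2072 genes that were lower (20.3%). The other 7 CTRL mice did so for 0.97% to 8.62% and 1.93% to 17% of them. The HFD mouse nearest to the CTRL mice was number 6, which lay beyond the CTRL median for 12.7% and 16.5%. Array weights, which give less influence to arrays that stray from their group, ran from 0.419 to 1.57 in CTRL mice and from 0.885 to 2.36 in HFD mice, with the lowest in CTRL mouse 3. Counts of a list are therefore given with these weights and also without them, or with the processed signal scaled to each array's 75th percentile, where a count then moved by more than 1.5 times and by at least 2 genes.

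The shares over all genes that follow are those against which each list's count is to be read. Of 16419 genes tested, 4648 changed on HFD at an adjusted p of at most 0.05 (28.3%), 2576 of them higher (15.7%) and 2072 lower (12.6%). The change was at least 1 on the log2 scale in 298 genes, 171 higher and 127 lower. Without array weights 1216 genes were higher and 1088 lower, and without CTRL mouse 2 the counts were 2846 and 2294. The 8 HFD mice did not overlap the 8 CTRL mice in 296 called genes (1.8%), 156 higher and 140 lower. Counted by probe, 24.8% of 33323 probes changed, 12.2% higher and 12.6% lower, and the response differed from that of *WT* mice in 14.3% (4781 probes, 1740 without weights) and from that of *Pparα*hep-/- mice in 3.42% (1139 probes, 110 without weights).

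**Figure D1:**
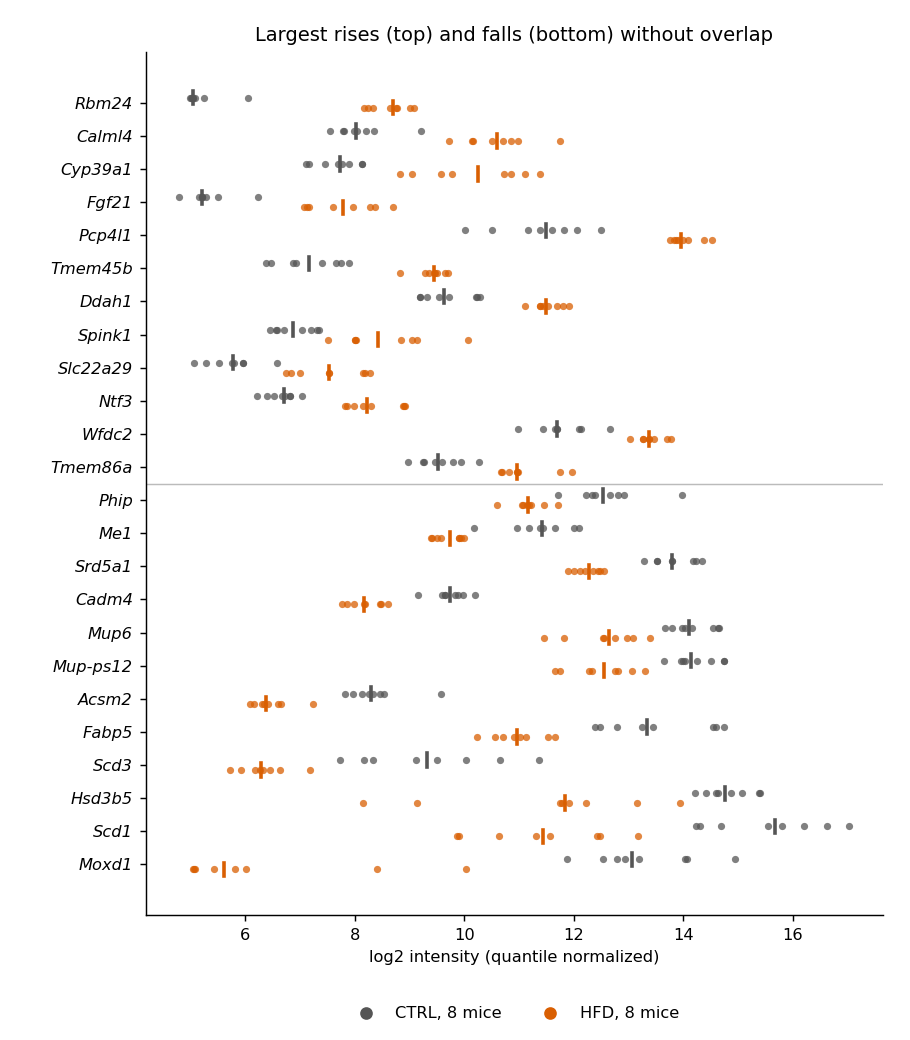
Log2 intensity (quantile normalized) of the 12 genes with the largest rise and the 12 with the largest fall among called genes without overlap, with 1 point per mouse, grey for CTRL, orange for HFD, and a bar at each median. *Moxd1* spans the widest distance, with HFD mice 2 and 3 above the other 6, and *Rbm24* has 1 CTRL mouse, number 2, at 6.05 above the other 7.

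The largest rise without overlap was in *Rbm24*, an RNA-binding protein, at 8.16 to 9.08 in HFD mice. Only 1 of 8 CTRL mice had a signal well above background, so the CTRL level is near the limit of detection. With the processed signal, from which background is subtracted, its change was 6.04 in place of 3.505, so its size is not fixed by these arrays. *Fgf21*, a hormone that the liver secretes under nutrient stress, had the same pattern, again with 1 of 8 CTRL mice well above background. *Fgf21* lay between 4.79 and 6.23 (median 5.22) in CTRL mice and between 7.07 and 8.70 (median 7.79) in HFD mice. The change was 2.53 ± 0.38 (SE, adjusted p = 5.986e-06), or 5.04 with the processed signal, and no HFD mouse came down to the level of the highest CTRL mouse. *Ddah1* lay between 9.20 and 10.29 (median 9.62) in CTRL mice and between 11.11 and 11.92 (median 11.49) in HFD mice, for the enzyme that degrades the nitric oxide synthase inhibitor dimethylarginine, a change of 1.82 ± 0.18 (SE, adjusted p = 1.378e-09). Its second probe gave 1.93 (adjusted p = 7.85e-11). *Ntf3*, the neurotrophin 3 gene, rose by 1.69 ± 0.17 (SE, adjusted p = 1.862e-09), *Wfdc2*, a secreted protein of the protease inhibitor type, by 1.63 ± 0.25 (SE, adjusted p = 7.02e-06), and *Tmem86a*, a lysoplasmalogenase, by 1.62 ± 0.26 (SE, adjusted p = 1.405e-05). *Spink1*, a trypsin inhibitor, rose by 1.81 ± 0.44 (SE, adjusted p = 0.002163), but without array weights its adjusted p was 0.0758. The other genes among the 12 largest rises, *Calml4*, *Cyp39a1*, *Pcp4l1*, *Tmem45b* and *Slc22a29*, were called too, with 2.63, 2.62, 2.53, 2.17 and 1.79. *Slc22a29* was well above background in 4 of 8 CTRL mice and gave 3.05 with the processed signal. *Tmem45b* and, among genes described below, *Plin4*, *Fitm1*, *Trem2* and *Top2a* were so in 7 of 8 CTRL mice, and *Ddias* in 7 of 8 HFD mice.

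Falls were led by *Moxd1*, a monooxygenase of the dopamine β-hydroxylase family. *Moxd1* lay between 11.88 and 14.95 (median 13.07) in CTRL mice and between 5.04 and 10.04 (median 5.62) in HFD mice. The change was -7.02 ± 1.02 (SE, adjusted p = 3.867e-06). Only 3 of the 8 HFD mice were well above background, so the size of the fall is not fixed (-9.01 with the processed signal), and mice 2 and 3 held the highest HFD levels. *Scd1*, the stearoyl-CoA desaturase that makes monounsaturated fatty acids, lay between 14.24 and 17.03 (median 15.68) in CTRL mice and between 9.87 and 13.17 (median 11.43) in HFD mice. It fell by 4.16 on the log2 scale, and its second probe gave -2.39, with 2 of 8 HFD mice well above background there, so that the size at this probe is not fixed. *Scd3* fell by 2.86 (adjusted p = 1.206e-07), while its other probe gave -0.24 (adjusted p = 0.0403). The Scd genes are near-identical in sequence, and signal may be shared between them. *Fabp5*, a fatty acid carrier of many non-hepatocyte cells, lay between 12.38 and 14.75 (median 13.35) in CTRL mice and between 10.24 and 11.66 (median 10.95) in HFD mice, and fell by 2.34 (adjusted p = 1.262e-05). *Me1*, the malic enzyme that supplies NADPH for fatty acid synthesis, fell by 1.58 (adjusted p = 0.001684), and *Acsm2*, a medium-chain acyl-CoA synthetase, by 1.95 (adjusted p = 1.317e-08). *Cadm4*, a cell adhesion protein, fell by 1.6, and *Srd5a1*, a steroid reductase, by 1.6. *Phip* changed by -1.54 at 1 probe, and its 4 dimmer probes gave -0.10 to 0.03, so its probes disagree, although 2 of the 4 were well above background in only 3 and 5 of 8 CTRL mice.

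Genes of lipid storage and PPARγ stood higher on HFD without PPARα, and most PPARγ targets did so in the other genotypes too. Of the 9 genes of PPARγ and its targets, 7 rose, 0 fell and the median change was 1.19, against 0.00014 over all genes tested. In *WT* mice 7 rose and 1 fell, with a median of 1.64, and in *Pparα*hep-/- mice 6 rose and 0 fell, with a median of 0.95. The response differed from *WT* in 3 of the 9 and from *Pparα*hep-/- in 0 (2 and 0 without weights), against 16.1% and 3.33% of all genes. *Pparg* lay between 9.89 and 11.71 (median 10.72) in CTRL mice and between 11.72 and 12.28 (median 12.02) in HFD mice, a change of 1.19 ± 0.23 (SE, adjusted p = 0.0001748). The 2 diets did not overlap. *Plin4*, a lipid droplet coat protein, lay between 6.08 and 11.27 (median 7.54) in CTRL mice and between 10.88 and 12.46 (median 11.81) in HFD mice, a rise of 3.64 ± 0.45 (SE, adjusted p = 1.602e-07). *Cidec*, which fuses lipid droplets, lay between 6.58 and 10.32 (median 7.81) in CTRL mice and between 9.32 and 11.52 (median 11.17) in HFD mice, a rise of 3.01 ± 0.57 (SE, adjusted p = 0.0001547). In both genes CTRL mouse 2 lay within the range of the HFD mice and the other 7 CTRL mice lay below it. The fatty acid transporter *Cd36* rose by 1.5 ± 0.28 (SE, adjusted p = 0.0001153) and *Fabp4*, a fatty acid carrier, by 0.74 ± 0.19 (SE, adjusted p = 0.003107), although without weights the adjusted p of *Fabp4* was 0.0505. *Lpl*, lipoprotein lipase, rose by 1.43 ± 0.34 (SE, adjusted p = 0.001568) at its brightest probe, and the other 5 gave 0.10 (uncalled) to 1.35, 3 of them well above background in 3 to 6 of 8 CTRL mice. Among 27 genes of triglyceride synthesis and lipid droplets 10 rose and 1 fell, including *Plin2* at 0.76 ± 0.18 (SE, adjusted p = 0.001969) and *Plin5* at 1.25 ± 0.30 (SE, adjusted p = 0.002126). Of these 27 genes 11 rose and 1 fell in *WT* mice, and 10 rose and 2 fell in *Pparα*hep-/- mice. *Fitm1*, a lipid droplet gene, lay between 5.03 and 8.52 (median 7.37) in CTRL mice and between 6.12 and 7.71 (median 7.33) in HFD mice, which gave -0.27 ± 0.32 (SE, adjusted p = 0.5728). Its 2 diets overlapped widely.

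Of 8 tested white adipocyte markers 2 rose, *Cidec* and *Fabp4*, and *Adrb3* fell, and their mean log2 level was 8.89 to 9.44 in CTRL mice and 9.21 to 9.91 in HFD mice. *Lep* and *Retn*, hormones of adipocytes, gave -0.06 and -0.05, uncalled (*Retn* was well above background in 3 of 8 CTRL and 5 of 8 HFD mice), and *Adipoq* and *Plin1* did not pass the filter on dim probes. The part of adipose tissue in the storage genes was not tested.

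**Figure D2:**
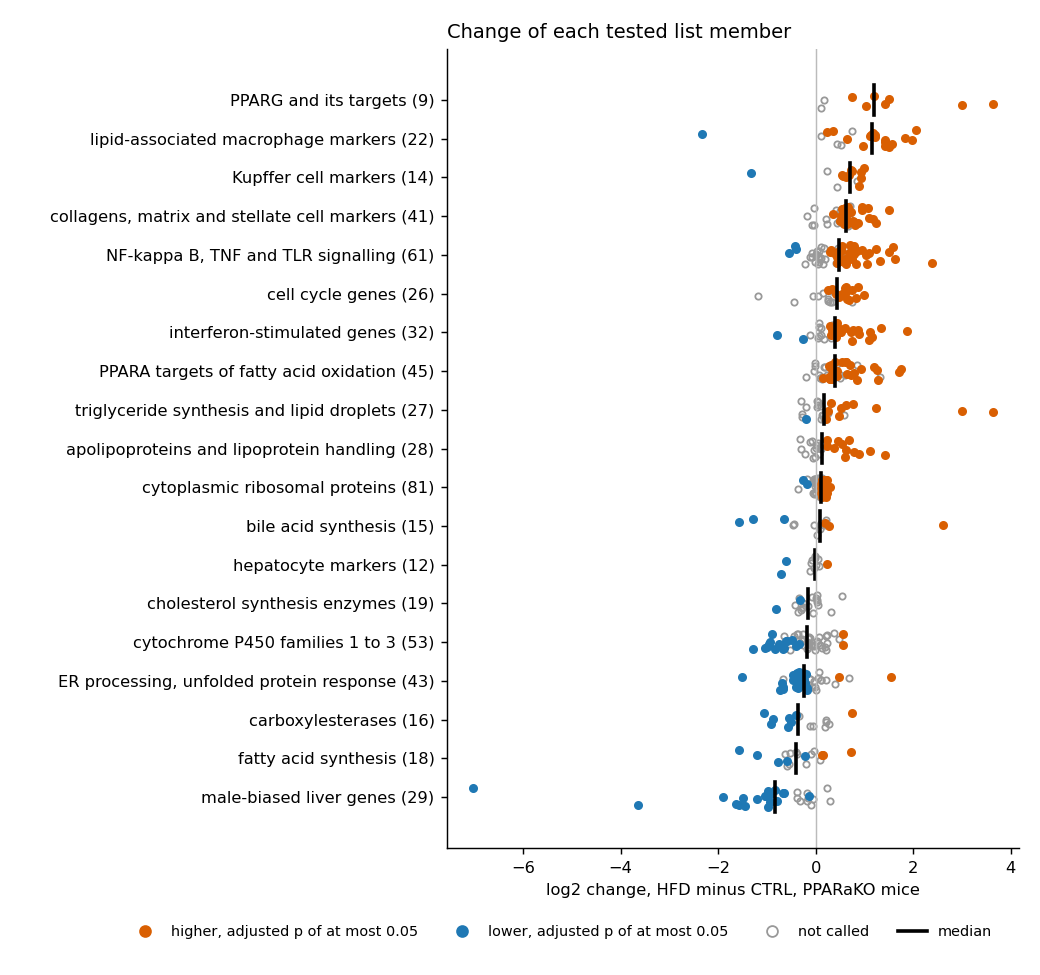
Log2 change (HFD minus CTRL) of each tested member of 19 gene lists in *Pparα*-/- mice, with the number of members in brackets. Filled points passed an adjusted p of 0.05, orange higher and blue lower, open points did not, and a bar marks the median, at 1.19 for PPARγ and its targets and -0.83 for male-biased genes.

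**Figure D3:**
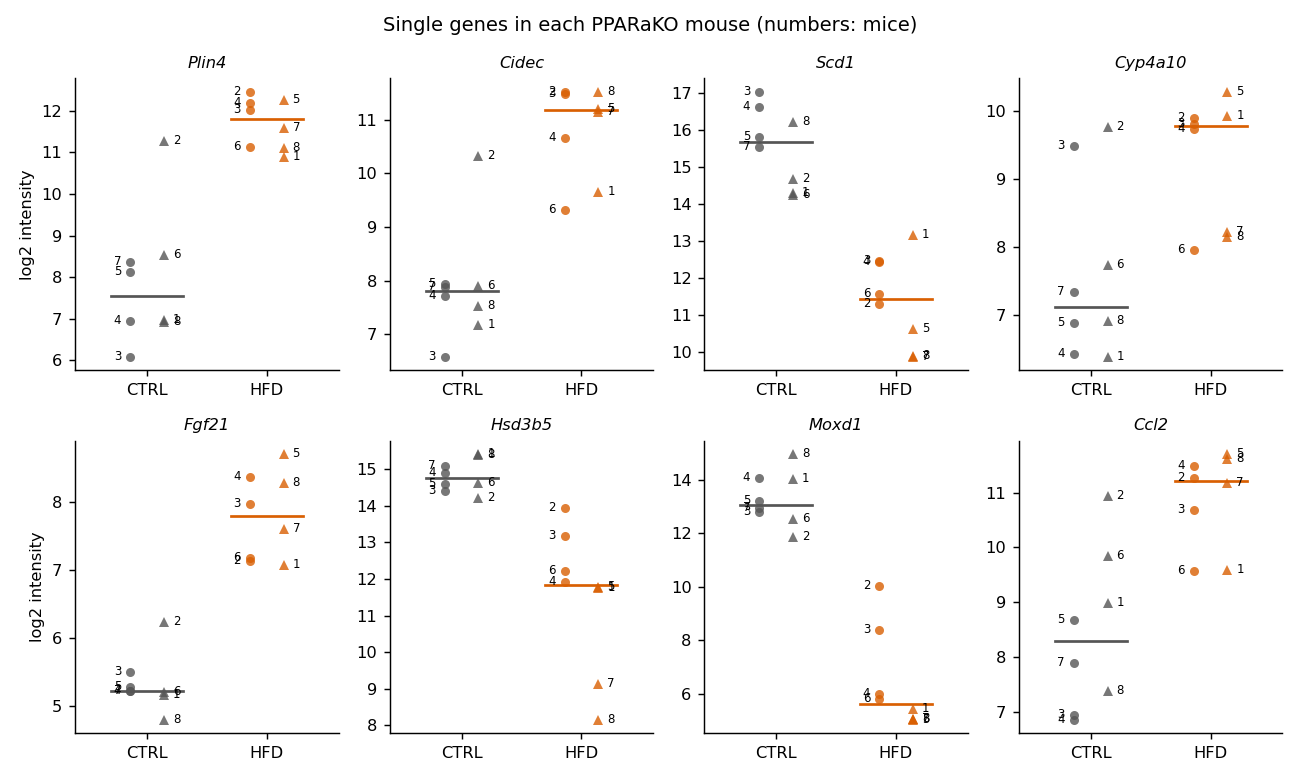
Log2 intensity of 8 genes in each *Pparα*-/- mouse, with mouse numbers, circles for wash batch 1, triangles for wash batch 2 and a line at each group's median. CTRL mouse 2 lies with the HFD mice for *Plin4* and *Cidec*, and HFD mice 7 and 8 are the lowest for *Hsd3b5*.

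Of 18 genes of fatty acid synthesis 3 rose and 5 fell (2 and 3 without weights, 1 and 9 scaled to the 75th percentile), which is 16.7% and 27.8% against 15.7% and 12.6% of all genes, with a median of -0.39. *Fasn* lay between 14.63 and 16.96 (median 15.28) in CTRL mice and between 13.78 and 14.90 (median 14.08) in HFD mice, for fatty acid synthase, a change of -1.19 ± 0.32 (SE, adjusted p = 0.005561). *Thrsp*, a regulator of lipogenesis, fell by 0.78, with an adjusted p of 0.0173 and, without weights, 0.0934. *G6pdx*, the first enzyme of the pentose phosphate pathway, rose by 0.73 ± 0.17 (SE, adjusted p = 0.001325). Of 15 desaturases and elongases 1 rose and 4 fell (6.67% and 26.7%). *Elovl6*, which lengthens palmitate, fell by 1.22 (adjusted p = 0.001338) and *Elovl3*, an elongase of very long chains, by 1.90 (adjusted p = 0.0002163). The change of *Elovl6* was -1.90 in wash batch 1 and -0.64 (adjusted p = 0.278) in wash batch 2. That of *Elovl3* was -1.03 (adjusted p = 0.205) in wash batch 1 and -2.53 in wash batch 2. *Elovl7* rose by 1.06 ± 0.28 (SE, adjusted p = 0.004323), with an adjusted p of 0.121 without weights. It was well above background in 1 of 8 CTRL and 6 of 8 HFD mice, and the processed signal gave 2.23.

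PPARα target genes of fatty acid oxidation rose without the receptor. Of 46 listed genes 45 were tested, 28 rose and 0 fell, with a median change of 0.39 and 10 genes without overlap. In *WT* mice the same list had 39 higher (10.8% of all genes were) and a median of 0.62, and in *Pparα*hep-/- mice 28 higher (12.6% of all genes) and a median of 0.36. The response differed from *WT* in 6 of the 45 genes, against 16.1% of all genes, and from *Pparα*hep-/- in 0, against 3.33% (0 and 0 without weights). *Ech1* lay between 11.91 and 13.12 (median 12.49) in CTRL mice and between 13.22 and 14.03 (median 13.67) in HFD mice, for a peroxisomal and mitochondrial dienoyl-CoA isomerase, a change of 1.28 ± 0.13 (SE, adjusted p = 2.358e-09) with no overlap between the diets. *Cpt1a*, of the carnitine shuttle, was among those without overlap, at 0.92. *Vnn1*, a pantetheinase, lay between 5.18 and 7.45 (median 5.57) in CTRL mice and between 5.95 and 7.72 (median 7.05) in HFD mice, a rise of 1.26 ± 0.34 (SE, adjusted p = 0.005387), with CTRL mouse 2 the highest CTRL mouse. It was well above background in 3 of 8 CTRL mice, and the processed signal gave 2.50. *Cyp4a10* and *Cyp4a31*, ω-hydroxylases of fatty acids, gave 1.71 and 1.74, and their adjusted p of 0.01031 and 0.008414 became 0.0572 and 0.0596 without weights. Their dimmer probes gave 0.12 to 0.62, uncalled, the highest of each gene with 2 and 1 of 8 CTRL mice well above background, and these copies are near-identical. *Cyp4a14*, *Acot2* and *Acot3*, canonical targets, gave 0.60 (adjusted p = 0.2427), 0.85 (adjusted p = 0.05423) and 1.33 (adjusted p = 0.05964). *Acot2* passed at an adjusted p of 0.0372 without CTRL mouse 3 and at 0.0447 without HFD mouse 6, and *Acot3* passed without CTRL mouse 6 (0.0355), HFD mouse 3 (0.0481) or HFD mouse 6 (0.0493). *Cyp4a14* was well above background in 1 of 8 CTRL mice, and with the processed signal it rose by 1.92 (adjusted p = 0.0244). *Cyp4a14* differed from *WT* by -1.96 (adjusted p = 0.01516).

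Of 19 cholesterol synthesis enzymes 0 rose and 2 fell (10.5%, near the 12.6% of all genes), *Tm7sf2* by 0.81 (adjusted p = 0.0009533) and *Ebp* by 0.32 (adjusted p = 0.001776), with a median of -0.15. The list's median was 0.59 in *WT* mice, with 9 higher, and -0.96 in *Pparα*hep-/- mice, with 17 lower (11.4% of all genes were). The response differed from *WT* in 7 and from *Pparα*hep-/- in 8 of the 19, and without weights in 7 and 0. Of 15 bile acid synthesis genes 3 rose and 3 fell (1 and 6 scaled to the 75th percentile), 20% each way and near the shares over all genes, with a median of 0.095. The rises were in *Cyp39a1*, an oxysterol hydroxylase, at 2.62, *Scp2*, a sterol carrier, at 0.27, and *Akr1c6* at 0.20. *Cyp7b1*, an oxysterol hydroxylase of the alternative bile acid pathway, lay between 14.43 and 16.31 (median 15.32) in CTRL mice and between 13.22 and 15.49 (median 13.96) in HFD mice, a fall of 1.57 (adjusted p = 0.0002761). HFD mouse 2 lay within the CTRL range and the other 7 below it. The change of *Cyp7b1* was -0.78 (adjusted p = 0.254) in wash batch 1 and -2.21 in wash batch 2. *Cyp2c70*, which hydroxylates bile acids to muricholic acid in mice, fell by 1.28 (adjusted p = 6.235e-05) and *Cyp27a1*, a mitochondrial sterol hydroxylase, by 0.65 (adjusted p = 0.0002569). Among 20 bile acid and sterol transporters 5 rose and 3 fell (2 and 1 without weights, 5 and 5 scaled to the 75th percentile), which is 25% and 15%, against 15.7% and 12.6% of all genes. *Slco1a1*, an uptake transporter, fell by 1.20 and *Abcc3*, an exporter at the blood side of hepatocytes, rose by 0.67, and neither passed without weights (adjusted p = 0.183 and 0.124). The second *Abcc3* probe gave 0.35, uncalled (adjusted p = 0.168).

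Male-biased genes fell as a group. Of 29 tested genes 19 fell and 0 rose, with a median of -0.83 and 10 without overlap, against -0.33 in *WT* and -0.50 in *Pparα*hep-/- mice. The response of 6 differed from *WT* (4 without weights), against 16.1% of all genes. The median was -0.58 within wash batch 1 and -1.08 within wash batch 2. *Hsd3b5*, a steroid dehydrogenase found in male liver, lay between 14.22 and 15.40 (median 14.75) in CTRL mice and between 8.16 and 13.94 (median 11.85) in HFD mice, a fall of 3.64 (adjusted p = 0.001365, and 0.0568 without weights). HFD mice 7 and 8 were far below the rest, and the log2 change was -1.94 in wash batch 1, where it did not pass (adjusted p = 0.298), and -5.25 in wash batch 2. *Mup6* and *Mup-ps12*, of the urinary protein family whose copies share most of their sequence, fell by 1.62 and 1.76. *Cyp4a12b*, a male ω-hydroxylase, fell by 1.62 (adjusted p = 0.00137). Of 21 female-biased genes 7 rose and 3 fell (33.3% and 14.3%, against 15.7% and 12.6% of all genes). *Sult2a7*, in the list of glucuronosyltransferases and sulfotransferases and not in the female-biased list, lay between 11.39 and 14.33 (median 12.39) in CTRL mice and between 9.27 and 12.54 (median 9.85) in HFD mice, a fall of 2.70 (adjusted p = 3.52e-06). Among the female-biased genes the transporter *Slc22a27* rose by 1.97 ± 0.34 (SE, adjusted p = 5.759e-05), and its second probe gave 1.32. In CTRL mice 3 of 8 were well above background at the first probe and 1 of 8 at the second, and the processed signal gave 3.29 at the first.

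Among enzymes of xenobiotic metabolism, 15 of 53 cytochrome P450 genes of families 1 to 3 fell and 2 rose (9 and 1 without weights, 21 and 1 scaled to the 75th percentile), against 12.6% of all genes lower and 15.7% higher, and 8 did not overlap, against 1.8% of all genes. *Cyp2c69* lay between 15.08 and 15.43 (median 15.17) in CTRL mice and between 14.13 and 14.83 (median 14.21) in HFD mice, a fall of 0.96 (adjusted p = 1.518e-06). *Cyp2c38* fell by 1.04 (adjusted p = 0.003133, and 0.0992 without weights). Carboxylesterases gave 7 lower and 1 higher of 16, with 2 lower without weights, led by *Ces2a* at -1.06 (adjusted p = 1.519e-05), and *Ugt2b1*, a glucuronosyltransferase, fell by 1.04 (adjusted p = 1.61e-05). *Gsta2*, a glutathione transferase, rose by 1.27 (adjusted p = 0.01807), but its adjusted p was 0.199 without weights and 0.0525 without CTRL mouse 8. The Cyp2c, Ces and Ugt families hold near-identical copies, so a probe may read more than 1 member.

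Genes of inflammation and of macrophages rose. Of 61 genes of NF-κB, TNF and TLR signalling 33 rose and 3 fell (22 and 1 without weights), with a median of 0.48. The same genes gave a median of 0.09 in *WT* mice, with 1 higher, and 0.33 in *Pparα*hep-/- mice, with 29 higher. The response differed from *WT* in 14 of the 61 (1 without weights) and from *Pparα*hep-/- in 0, against 16.1% and 3.33% of all genes. *Ccl2*, a monocyte chemokine, lay between 6.85 and 10.94 (median 8.29) in CTRL mice and between 9.57 and 11.70 (median 11.21) in HFD mice, a rise of 2.38 ± 0.40 (SE, adjusted p = 3.103e-05). The TLR2 receptor gene rose by 1.62 ± 0.26 (SE, adjusted p = 1.724e-05) and *Cd14*, a co-receptor for bacterial lipopolysaccharide, by 1.58 ± 0.27 (SE, adjusted p = 5.101e-05), in both of which the diets overlapped. CTRL mouse 2 lay above the HFD median in 10 of the 33 risen genes. *Tnf* itself fell at its brighter probe (-0.54) and rose at the other (0.69, with 4 of 8 CTRL mice well above background), so its direction is not settled. The list's median was 0.62 within wash batch 1 and 0.27 within wash batch 2.

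Markers of Kupffer cells, the resident macrophages of the liver, gave 10 higher and 1 lower of 14, with a median of 0.71. *C1qa* rose by 0.99 ± 0.22 (SE, adjusted p = 0.0008655) and *Adgre1*, which encodes F4/80, by 0.93 ± 0.22 (SE, adjusted p = 0.001678), although the second *Adgre1* probe, well above background in 1 of 8 CTRL and 4 of 8 HFD mice, gave 0.09 (adjusted p = 0.583). *Cd163* fell by 1.33 (adjusted p = 0.01224, and 0.149 without weights). Among 22 markers of lipid-associated macrophages, which gather around dying lipid-laden cells, 17 rose and 1, *Fabp5*, fell, with a median of 1.15 (10 and 1 without weights, 20 and 1 without CTRL mouse 2). *Anxa2* lay between 10.83 and 13.71 (median 11.55) in CTRL mice and between 13 and 14.18 (median 13.81) in HFD mice, a rise of 2.05 ± 0.32 (SE, adjusted p = 1.053e-05). *Trem2*, a lipid receptor of these cells, lay between 6.01 and 11.77 (median 8.23) in CTRL mice and between 8.90 and 11 (median 10.81) in HFD mice, a rise of 1.84 ± 0.45 (SE, adjusted p = 0.002292). *Gpnmb*, a membrane glycoprotein of these cells, rose by 1.97 ± 0.56 (SE, adjusted p = 0.008405) and lost its call without weights (adjusted p = 0.0935). It was well above background in 4 of 8 CTRL mice. CTRL mouse 2 lay above the HFD median in 16 of the 17 risen genes. Within wash batch 1 alone 15 of the 22 rose (median 1.51) and within wash batch 2 alone 4 (median 0.82). The change of *Trem2* was 3.02 in wash batch 1 and 0.92 in wash batch 2, and that of *Gpnmb* 3.16 and 0.96. The median of the list was 0.12 in *WT* and 0.96 in *Pparα*hep-/- mice. The response differed from *WT* in 7 and from *Pparα*hep-/- in 1 (2 and 0 without weights), against 16.1% and 3.33% of all genes. In bulk RNA more macrophages and more RNA per macrophage cannot be told apart. Neutrophil markers gave 3 higher of 12 (0 without weights), including *S100a8*, a calcium-binding protein, at 1.1 (adjusted p = 0.03563), and lymphocyte markers 0 higher and 1 lower of 18. *S100a8* no longer passed without CTRL mouse 4, 5, 6 or 7 or without HFD mouse 3, 4 or 7 (adjusted p of 0.0534 to 0.093), and was at 0.188 without weights. *Lcn2*, an acute-phase protein that binds iron carriers, rose by 1.83 ± 0.62 (SE, adjusted p = 0.02563) and lost its call without CTRL mouse 4 (0.074), HFD mouse 7 (0.0628) or HFD mouse 8 (0.0529), and without weights (0.149).

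**Figure D4:**
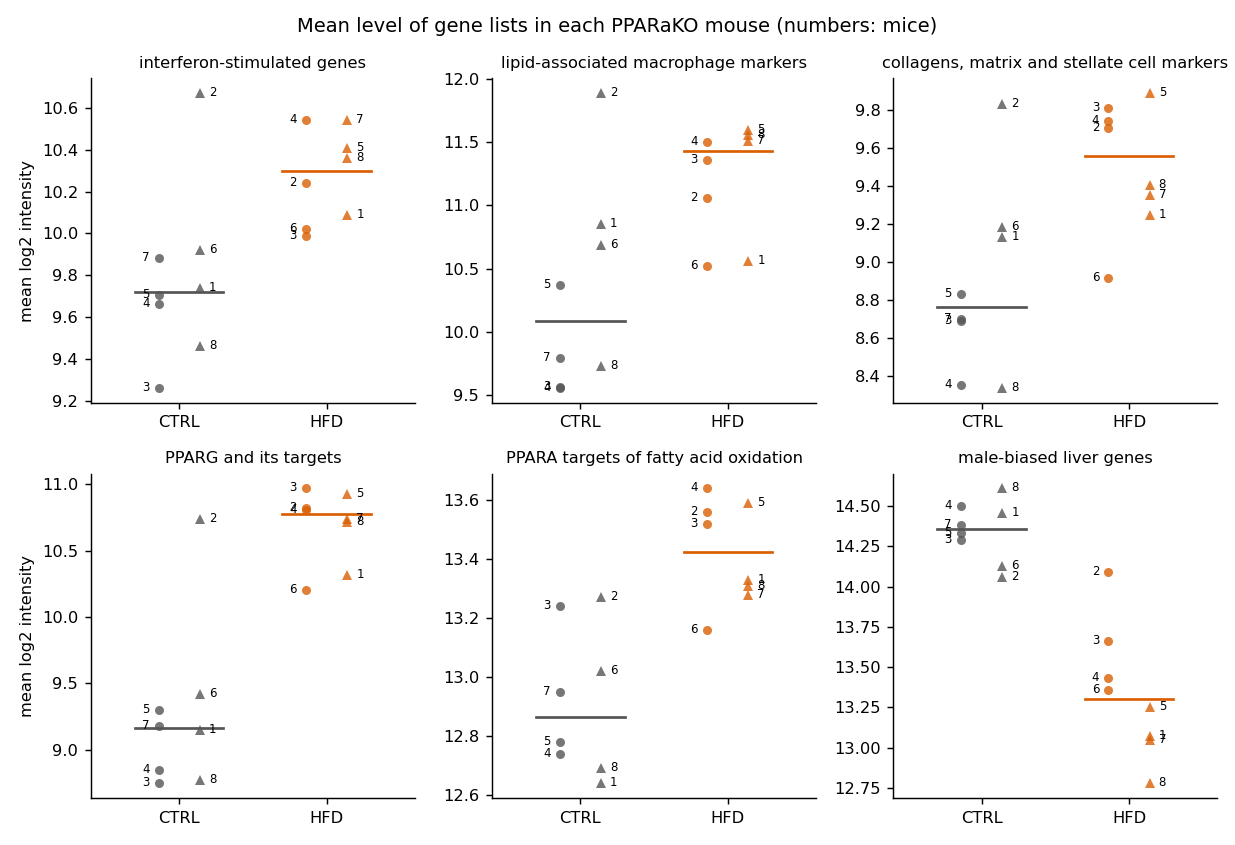
Mean log2 intensity over the members of 6 gene lists in each *Pparα*-/- mouse, with mouse numbers, circles for wash batch 1, triangles for wash batch 2 and a line at the median of each diet. CTRL mouse 2 lies at 10.67 for interferon-stimulated genes, 11.89 for lipid-associated macrophage markers and 9.83 for collagens, above or near the highest HFD mice.

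Collagen and matrix genes gave 26 higher and 0 lower of 41 tested, with a median of 0.63 (0.04 in *WT* and 0.71 in *Pparα*hep-/- mice). The response differed from *WT* in 2 of the 41 and from *Pparα*hep-/- in 0, against 16.1% and 3.33% of all genes. Without weights 4 of the 41 rose, and without CTRL mouse 2 the count was 33. Within wash batch 1 alone 21 rose, with a median of 0.98, and within wash batch 2 alone 0 rose, with a median of 0.27. The mean level of the list was 8.34 to 9.83 in CTRL mice and 8.92 to 9.89 in HFD mice. *Col1a1*, the main fibrillar collagen chain, lay between 6.55 and 11.53 (median 8.45) in CTRL mice and between 9.16 and 11.78 (median 10.46) in HFD mice, a rise of 1.51 ± 0.50 (SE, adjusted p = 0.02279). CTRL mouse 2 was the highest CTRL mouse, at the level of the upper HFD mice. *Col1a2* and *Col3a1*, which form fibrils with it, rose by 1.24 (adjusted p = 0.01446) and 1.18 (adjusted p = 0.02938), while their dimmer probes, well above background in 1 to 6 of 8 CTRL mice, gave 0.21 to 0.33, uncalled. Without weights the adjusted p of the 3 collagens was 0.0927, 0.0948 and 0.14. The 3 changes were 3.45, 2.49 and 2.49 in wash batch 1 and -0.12, 0.17 and 0.063 in wash batch 2, and within wash batch 2 alone none of the 3 passed. Leaving out CTRL mouse 4, 7 or 8 or HFD mouse 3 or 4 ended the call of *Col1a1* (adjusted p of 0.053 to 0.0905), CTRL mouse 4 or HFD mouse 3 that of *Col1a2* (0.0579 and 0.0538), and CTRL mouse 4, 7 or 8 or HFD mouse 2, 3, 4 or 5 that of *Col3a1* (0.0584 to 0.0992). Hepatocyte markers had a median of -0.02, with 1 higher and 2 lower of 12, but 0 higher and 10 lower with the signal scaled to the 75th percentile.

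Interferon-stimulated genes rose in *Pparα*-/- mice. Of 32 genes 19 rose and 2 fell, *Mx2* and *Bst2*, with a median of 0.40 (-0.08 in *WT* and -0.15 in *Pparα*hep-/- mice). Without weights 9 rose and 1 fell, and without CTRL mouse 2 the counts were 20 and 1. The response differed from *WT* in 12 of the 32 genes and from *Pparα*hep-/- in 6, against 16.1% and 3.33% of all genes, but without weights in 2 and 0. *Ifi27l2b* rose by 1.88 ± 0.32 (SE, adjusted p = 3.68e-05) and *Ifi27l2a* by 1.12 ± 0.22 (SE, adjusted p = 0.0003057), copies that share sequence. *Gbp2*, a guanylate-binding protein, lay between 7.17 and 9.49 (median 7.99) in CTRL mice and between 8.73 and 10.40 (median 9.45) in HFD mice, a rise of 1.34 ± 0.25 (SE, adjusted p = 0.0001025). *Oas1a*, a sensor of double-stranded RNA, lay between 10.90 and 13.35 (median 11.19) in CTRL mice and between 11.85 and 12.85 (median 12.56) in HFD mice, a rise of 1.09 ± 0.24 (SE, adjusted p = 0.0008864). *Ifi44* rose by 1.15 ± 0.21 (SE, adjusted p = 0.0001328), and its second probe, well above background in 3 of 8 CTRL mice, by 0.37. In all 3 of *Ifi27l2a*, *Oas1a* and *Ifi44* CTRL mouse 2 was the highest CTRL mouse. It lay above the HFD median in 18 of the 19 risen genes, and each of the other 7 CTRL mice in 0. Its part in the result was not tested beyond the counts without it. *Psmb8*, a subunit of the immunoproteasome, rose by 0.47 ± 0.10 (SE, adjusted p = 0.0007637).

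The promoters of 3 risen genes of this list are shown because they carry a sequence that interferon regulators bind, GAAA followed after 2 bases of any kind by GAAA, on either strand and in capitals. They are the 250 bases before the start of the gene in RefSeq (GRCm38.p6), *Gbp2* at chr3:142620413-142620662 (plus strand), *Oas1a* at chr5:120907526-120907775 (minus strand) and *Gbp3* at chr3:142559794-142560043 (plus strand). *Gbp3* rose by 0.90.
Gbp2: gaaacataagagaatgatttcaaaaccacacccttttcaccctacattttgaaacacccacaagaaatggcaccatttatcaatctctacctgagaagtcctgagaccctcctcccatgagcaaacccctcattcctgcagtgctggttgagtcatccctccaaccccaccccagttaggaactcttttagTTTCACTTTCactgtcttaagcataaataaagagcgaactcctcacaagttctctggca
Oas1a: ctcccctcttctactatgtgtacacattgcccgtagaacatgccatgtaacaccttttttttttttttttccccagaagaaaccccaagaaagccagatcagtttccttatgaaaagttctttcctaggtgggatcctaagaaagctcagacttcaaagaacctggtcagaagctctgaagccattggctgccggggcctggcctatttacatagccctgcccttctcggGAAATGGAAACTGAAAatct
Gbp3: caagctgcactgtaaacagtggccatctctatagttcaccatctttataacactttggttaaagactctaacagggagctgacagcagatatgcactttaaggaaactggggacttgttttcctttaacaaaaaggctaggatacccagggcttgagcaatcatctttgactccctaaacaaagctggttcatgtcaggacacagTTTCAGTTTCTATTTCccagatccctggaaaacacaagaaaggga
*Oas1a* and *Gbp3* each hold 2 overlapping matches. Among all 27025 genes with a promoter, 936 (3.46%) hold a match. The table held promoters for 21 of the 32 genes, fewer than 80%, so the share in the list, 12 of 21, is void as a check. A match describes letters and is not a bound site.

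Genes of the endoplasmic reticulum fell. Of 43 genes of protein processing and the unfolded protein response 24 fell and 2, *Atf3* and *Ddit3*, rose, with a median of -0.23. In *WT* mice 30 fell (10% of all genes), with a median of -0.37, and in *Pparα*hep-/- mice 11 fell, with a median of -0.14, and the response differed from *WT* in 9 (3 without weights), against 16.1% of all genes. *Hyou1*, an endoplasmic reticulum chaperone, lay between 6.91 and 8.18 (median 7.21) in CTRL mice and between 6.40 and 6.81 (median 6.61) in HFD mice, a fall of 0.70 (adjusted p = 8.257e-05). The diets did not overlap. *Derl3*, which helps to remove misfolded proteins, fell by 1.51 (adjusted p = 0.003047) and *Sdf2l1* by 0.72 (adjusted p = 0.01086). *Manf* fell by 0.66 (adjusted p = 0.001896) and the chaperone *Hspa5*, also called BiP, by 0.45 (adjusted p = 0.004637). *Atf3* and *Ddit3*, of the stress branch driven by ATF4, rose by 1.54 and 0.47, with 0.14 at the second *Ddit3* probe, uncalled.

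The promoters of 3 of the genes that fell are shown for their match to the endoplasmic reticulum stress element, CCAAT followed after 9 bases of any kind by CCACG, on either strand and in capitals. They lie at chr10:75893148-75893397 for *Derl3*, chr15:88819396-88819645 for *Creld2* and chr14:118937682-118937931 for *Dnajc3*, all on the plus strand of GRCm38.p6, from RefSeq. *Creld2* fell by 0.66 and *Dnajc3* by 0.46.
Derl3: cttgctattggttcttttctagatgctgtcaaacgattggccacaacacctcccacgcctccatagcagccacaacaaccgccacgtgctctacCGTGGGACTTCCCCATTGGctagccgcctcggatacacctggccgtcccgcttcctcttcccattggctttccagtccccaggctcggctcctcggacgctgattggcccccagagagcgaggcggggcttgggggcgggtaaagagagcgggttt
Creld2: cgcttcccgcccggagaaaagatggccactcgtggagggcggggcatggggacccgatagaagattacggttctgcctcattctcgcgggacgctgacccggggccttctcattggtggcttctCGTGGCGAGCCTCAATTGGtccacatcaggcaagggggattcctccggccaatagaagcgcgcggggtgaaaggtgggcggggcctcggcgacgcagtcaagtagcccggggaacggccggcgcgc
Dnajc3: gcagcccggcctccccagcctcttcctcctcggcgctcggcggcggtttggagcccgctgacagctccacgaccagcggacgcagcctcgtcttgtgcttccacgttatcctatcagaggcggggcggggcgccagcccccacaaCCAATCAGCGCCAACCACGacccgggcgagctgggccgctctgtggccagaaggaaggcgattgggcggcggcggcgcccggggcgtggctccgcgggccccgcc
The element was found in 9 of 37 genes of the list with a promoter (24.3%) and in 35 of all 27025 (0.13%). It was in 7 of the 21 called members with a promoter and in 2 of the 16 that were not called. The list was drawn up by function and holds genes of the stress response for which the element is named. Its share in the list is therefore no check of the fall on HFD.

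Of 30 glucose and glycogen genes 6 rose and 6 fell, 20% each way and near the shares over all genes. Without weights 2 rose and 5 fell, and scaled to the 75th percentile 5 and 10. *Ppp1r3g* and *Ppp1r3b*, which target the phosphatase that activates glycogen synthase, fell by 1.57 (adjusted p = 0.001111) and 0.90 (adjusted p = 1.013e-05), and *G6pc*, glucose 6-phosphatase, by 0.99 (adjusted p = 0.01324). Of 54 genes of the urea cycle and amino acid breakdown 14 fell and 6 rose (7 and 5 without weights, 23 and 2 scaled to the 75th percentile). *Cps1*, the first enzyme of the urea cycle, fell by 0.71 (adjusted p = 0.005105) and *Sds*, serine dehydratase, by 0.95 (adjusted p = 0.001539). *Got1*, an aspartate aminotransferase, fell by 0.90 (adjusted p = 0.0189), by 1.89 in wash batch 1, and gave 0.0385 in wash batch 2. Its call was lost without CTRL mouse 4 (0.0625) or HFD mouse 3 (0.0835).

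Of 28 genes of apolipoproteins and lipoprotein handling 12 rose and 0 fell, but 8 rose and 6 fell with the signal scaled to the 75th percentile. *Apoa4*, of lipid absorption and secretion, lay between 16.68 and 17.40 (median 16.90) in CTRL mice and between 17.74 and 18.31 (median 18) in HFD mice, a rise of 1.12 ± 0.24 (SE, adjusted p = 0.0005758). *Apoc2*, the activator of lipoprotein lipase, rose by 0.90 ± 0.12 (SE, adjusted p = 1.464e-06), and *Angptl4*, its inhibitor, by 0.79 ± 0.22 (SE, adjusted p = 0.006538). In both apolipoproteins the diets did not overlap. With the signal scaled to the 75th percentile *Apoa4* gave 0.75 and *Apoc2* 0.56, both still called. Of 26 cell cycle genes 15 rose (0 without weights), with a median of 0.44. CTRL mice 2 and 8 each lay above the HFD median in 7 of the 15. *Mcm5*, of the replication helicase, rose by 1.00 (adjusted p = 0.00993, 0.153 without weights), *Top2a*, a topoisomerase, by 0.87 (adjusted p = 0.007666, 0.113 without weights) and *Mki67*, the Ki-67 antigen, by 0.75 (adjusted p = 0.02123, 0.17 without weights). *Mki67* lost its call without CTRL mouse 7 (0.0575). Of 81 cytoplasmic ribosomal proteins 35 rose and 2 fell, with a median of 0.11, against -0.19 in *WT* mice and -0.07 in *Pparα*hep-/- mice. With the signal scaled to each array's 75th percentile 0 rose and 21 fell, so the direction of this list rests on the scaling. Without weights 8 rose and 0 fell. *Rps12* rose by 0.30 ± 0.059 (SE, adjusted p = 0.0002427), and its second probe gave 0.14 (adjusted p = 0.378). With that scaling it gave 0.10 and was not called (adjusted p = 0.118). The response of 69 ribosomal protein genes differed from *WT* and of 32 from *Pparα*hep-/- mice (39 and 4 without weights), against 16.1% and 3.33% of all genes. These differences were not counted with that scaling. Of 80 oxidative phosphorylation subunits 8 rose and 7 fell (1 and 3 without weights), and 0 rose and 52 fell with that scaling.

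The test of the difference in response found 97 genes with a higher and 81 with a lower response than in both other genotypes, and 14 and 11 without weights. Both differences share the 16 *Pparα*-/- mice, so they are not independent, and the count rests on the weights. Higher responses than in both were led by *Rbm24*, *Calml4*, *Cyp39a1*, *Ddah1*, *Ntf3* and *Ifi44*. For *Ddah1* the excess was 1.74 (adjusted p = 5.633e-05) over *WT* and 1.55 (adjusted p = 0.0001763) over *Pparα*hep-/- mice, for *Ntf3* 1.57 (adjusted p = 8.013e-05) and 1.47 (adjusted p = 0.0001763), and for *Ifi44* 1.5 (adjusted p = 0.001389) and 1.58 (adjusted p = 0.001116). Without weights 0 of the 32 interferon-stimulated genes differed from *Pparα*hep-/- mice. *Rbm24* changed by -0.13 in *WT*, uncalled, and by 1.47 in *Pparα*hep-/- mice. The lowest responses relative to both were in *Cplane1*, *Atp8b5*, *Scd1*, *Ddias*, *1700007K13Rik* and *Mup6*. *Cplane1*, a gene of ciliary assembly, lay between 10.25 and 13.67 (median 11.83) in CTRL mice and between 8.62 and 11.61 (median 9.29) in HFD mice, a fall of 2.83 (adjusted p = 5.049e-08), and of its 3 dimmer probes 1 gave -3.65 (adjusted p = 3.56e-08) and the others -0.02 and -0.06. *Atp8b5*, of a phospholipid-transporting family, fell by 2.03, with -0.01 at its other probe. *Ddias* fell by 1.26 (adjusted p = 1.213e-05) and *1700007K13Rik* by 1.52 (adjusted p = 3.68e-05), the latter well above background in 6 of 8 mice of each diet.

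**Figure D5:**
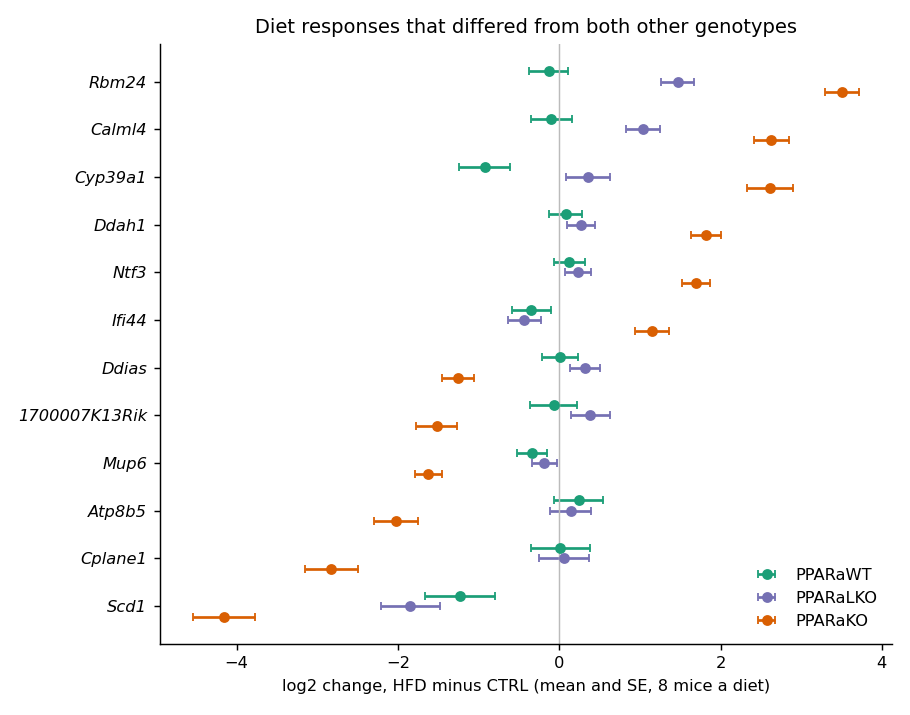
Log2 change (HFD minus CTRL, mean and SE, 8 mice a diet) in each genotype, for the 6 genes with the largest excess and the 6 with the largest shortfall of the *Pparα*-/- response over both others. *Pparα*-/- mice (orange) lie furthest from 0 in all 12, and *Scd1* moved in the same direction in the 3 genotypes.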

How the data were processed

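Liver RNA of 48 mice was measured on Agilent 1-colour arrays, and groups were taken from the labels. The authors deposited spot intensities from Agilent Feature Extraction 10.10.1.1, of which the median intensity, neither background subtracted nor normalized per the file headers, was used here. The log2 values that the authors deposited had passed their own filter, quantile normalization and correction for washing bath, and served as an alternative.

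Median intensities of 59305 spots were taken to log2, outlier spots were left out, spots of a probe were averaged, and 33323 probes were kept that stood well above background on 4 or more of the 8 arrays of any group. After quantile normalization limma 3.58.1 in R 4.3.3 was fitted to the 48 arrays with group means, a wash batch term and array weights. Adjustment was by Benjamini-Hochberg over all probes of a contrast, with calls at 0.05. Changes are HFD minus CTRL. A gene took the value of its brightest tested probe, named through RefSeq accessions (22293 probes matched, 16419 genes). Probe positions (mm9) were copied from the files. The scripts were tested on simulated data. Precision is limited by the number of mice and by the signal over background (median intensity 56 to 91, median local background 20 to 36), and 0 spots were saturated.

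Genes were named by a rule: the 12 largest rises and falls without overlap between diets, up to 4 called members of each list and members whose role is described, *Ppara* and the genes that the study's text names for its transcriptome, and the 6 largest excesses and shortfalls against both other genotypes. The rule gave 182 genes, of which the text gives a part. Some genes, 1 list among them in whole, are not reported here. The members and the gene lists were chosen with earlier results of these data known. Promoters are the RefSeq sequences of GRCm38.p6 (250 bases). Alternatives were no weights, only the 16 arrays of *Pparα*-/- mice, no wash term, slide as block, processed signal scaled to the 75th percentile, normexp (offset 50), other filters, each wash batch alone, a threshold of 0.01, the replicate number as block and each array left out.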

Additional observations from a re-analysis of the deposited data

Results flagged for a closer look

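The difference in HFD response between genotypes was itself tested, and it passed for the following named genes, given on the log2 scale as the signed change in *Pparα*-/- mice minus that in the other genotype, so that a positive value is a larger rise or a smaller fall. The difference was positive against both other genotypes, first *WT* and then *Pparα*hep-/- mice, in *Calml4* (2.73 and 1.59), *Cyp39a1* (3.54 and 2.26), *Ddah1* (1.74 and 1.55), *G6pdx* (1.41 and 1.48), *Ifi44* (1.5 and 1.58), *Ntf3* (1.57 and 1.47), *Oas1a* (1.47 and 1.12), *Rbm24* (3.64 and 2.04) and *Rps12* (0.62 and 0.30). It was negative against both, in the same order, in *1700007K13Rik* (-1.45 and -1.91), *Acsm2* (-1.75 and -1.24), *Atp8b5* (-2.27 and -2.17), *Cplane1* (-2.84 and -2.88), *Ddias* (-1.27 and -1.57), *Mup-ps12* (-1.22 and -1.75), *Mup6* (-1.29 and -1.44) and *Scd1* (-2.92 and -2.31). Against *WT* alone it was positive in *Anxa2* (1.86), *Apoc2* (0.75), *Elovl7* (1.30), *Fgf21* (2.65), *Ifi27l2a* (1.30), *Ifi27l2b* (1.38), *Lpl* (2.69), *Spink1* (2.73), *Tlr2* (1.36), *Tmem45b* (1.38) and *Tmem86a* (2.09). Against *WT* alone it was negative in *Ces2a* (-0.76), *Cyp27a1* (-0.75), *Cyp4a14* (-1.96), *Ebp* (-0.54), *Elovl3* (-3.22), *Fitm1* (-1.81), *Moxd1* (-4.84), *Phip* (-1.05), *Ppara* (-0.43), *Ppp1r3b* (-0.76), *Srd5a1* (-0.87), *Sult2a7* (-3.36) and *Tm7sf2* (-1.5). Against *Pparα*hep-/- mice alone it was positive in *Psmb8* (0.62) and in *Fabp5* (1.91), whose change was -2.34 in *Pparα*-/- and -4.25 in *Pparα*hep-/- mice. Neither of these differences was called without array weights. Of the 41 proteasome subunits (with *Psmb8*) and 22 lipid-associated macrophage markers (with *Fabp5*), 0 then differed from *Pparα*hep-/- mice. The differences of *Ifi44* and *Oas1a* from *Pparα*hep-/- mice, and of *Ces2a* from *WT*, were not called without weights either. An uncalled difference from the other genotype does not show that the responses were alike.

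Single mice stood far from the other 7 of their group in 20 of the 208 groups examined (104 genes in each diet), where chance, at about 1 in 20 groups, would set apart 10.4. CTRL mouse 2 did so in 12 of them, as the highest of its group except where stated, in *Anxa2* (13.71), *Cd14* (10.29), *Cd163* (6.60, the lowest), *Cidec* (10.32), *Elovl7* (6.64), *Ifi27l2a* (13.58), *Ifi44* (9.41), *Oas1a* (13.35), *Plin2* (14.32), *Plin4* (11.27), *Rbm24* (6.05) and *Vnn1* (7.45). HFD mouse 1 was the highest in *1700007K13Rik* (6.81), *Cplane1* (11.61) and *Cyp2c69* (14.83). CTRL mouse 3 was the highest in *Acot2* (10.19), *Cyp4a14* (7.43) and *Elovl3* (12.54). CTRL mouse 4 was the highest in *Acsm2* (9.57). HFD mouse 2 was the highest in *Cyp7b1* (15.49). These values are log2 intensities. Leaving out CTRL mouse 2 changed none of the 104 gene calls.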

How the results depend on the processing

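The main fit called 8273 probes on HFD (4081 higher and 4192 lower), and 4608 at an adjusted p of 0.01 (2351 and 2257). Separate fits called 4034 probes without array weights (1926 and 2108), 3193 within wash batch 1 (1812 and 1381) and 3975 within wash batch 2 (1782 and 2193). How many of the calls within a wash batch were among the 8273 was not counted. Of the 4034, 4027 were among the 8273, and 0 of these had the opposite sign. Leaving out 1 array gave 6770 to 9190 probes (3348 to 4488 higher, 3422 to 4702 lower), with the most without CTRL mouse 2. The share called higher was 49.3%, but 39.4% with the signal scaled to the 75th percentile. The response differed from *WT* in 4781 probes, and in 1740 without weights, 3099 without the wash term, 2532 without the filter on dim probes, 1278 and 892 within wash batches 1 and 2, 1929 at 0.01 and 3880 to 5449 with 1 array left out. It differed from *Pparα*hep-/- mice in 1139 probes, and in 110, 760 (no wash term), 398 (no filter), 21, 149 and 329 in the same alternatives, and in 740 to 1274 with 1 array left out (fewest without CTRL mouse 6). The count against *Pparα*hep-/- mice thus depended on the weights.

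Over 104 genes, 1230 of 1350 values under the other alternatives kept direction and side of the threshold, 107 lost the call, 9 gained it and 4 reversed. Those were *Fitm1* at 0.0092 without weights and 0.60 within wash batch 1, and *Col1a1* at -0.12 and *Got1* at 0.0385 within wash batch 2. Without weights 21 calls were lost, among them *Col1a1*, *Col1a2* and *Col3a1*, and the others are given above. With 1 array left out 1630 of 1664 were kept, 28 lost, 5 gained and 1 reversed, *Fitm1*, which ran from -0.45 to 0.017, the latter without HFD mouse 7. The cause was not tested. With the replicate number as a block 8685 probes were called (4414 and 928 for the differences), and no call changed among the 104 genes, while falls went from 5 to 9 in fatty acid synthesis and from 7 to 12 in oxidative phosphorylation. Same-numbered mice correlated between -0.22 and 0.12, over 0.1 in 1 of 8 pairs, and 0 of 8 CTRL mice correlated best with their own number, so the numbers were not taken to pair the mice.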

Other observations

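A small set of genes with no common function known here shared the order of the mice. *Cplane1*, *Atp8b5*, *1700007K13Rik* and *Ddias* were highest among CTRL mice in mice 1, 5 and 6, and the highest HFD mouse was number 1 in each. Their log2 changes in *WT* and *Pparα*hep-/- mice lay between -0.068 (*1700007K13Rik*, *WT*) and 0.39 (*1700007K13Rik*, *Pparα*hep-/-), and none passed limma's test.

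Iron and antigen presentation genes were called mostly higher, in numbers that depended on weights and scaling. Of 18 iron handling genes 8 rose and 0 fell (5 and 0 without weights, 5 and 2 scaled to the 75th percentile), among them the ferritin subunit *Fth1* (0.53, adjusted p = 4.64e-07) and the transferrin receptor *Tfrc* (0.58, adjusted p = 0.0265, but 0.27 and uncalled at its second probe). Of 20 genes of MHC and antigen presentation 11 rose and 0 fell (5 and 0 without weights, 6 and 1 scaled to the 75th percentile), with *B2m*, the light chain of class I, at 0.39 (adjusted p = 7.4e-06). Of 18 circadian clock genes 0 passed limma's test (3 had an unadjusted p under 0.05), with or without weights, although 2 fell within wash batch 2 and 3 with the signal scaled to the 75th percentile.

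The remaining lists are to be read against 15.7% of all genes higher and 12.6% lower. Acute-phase proteins had 17.9% higher and 3.57% lower, complement and coagulation 14% and 20.9%, and nuclear receptors 12.5% and 7.5%. The lists gave 5 higher and 1 lower of 28 acute-phase protein genes (4 and 1 without weights), 6 higher and 9 lower of 43 complement and coagulation genes (4 and 4 without weights), 12 higher and 3 lower of 41 proteasome subunits (5 and 2 without weights), 9 higher and 0 lower of 22 Nrf2 target and antioxidant genes (2 and 0 without weights) and 15 higher and 1 lower of 46 chemokine and chemokine receptor genes (6 and 1 without weights). There were 8 higher and 2 lower of 22 glutathione S-transferases (3 and 2 without weights), 4 higher and 0 lower of 18 hepatokines and 1 higher and 5 lower of 25 glucuronosyltransferases and sulfotransferases (0 and 4 without weights). Further lists gave 0 higher and 4 lower of 24 genes of the insulin, IGF and growth hormone axis (0 and 2 without weights), 5 higher and 3 lower of 40 nuclear receptors (3 and 1 without weights), 1 higher and 3 lower of 17 peroxisome biogenesis genes (0 and 1 without weights) and 2 higher and 3 lower of 10 SREBP2 regulators (1 and 2 without weights). Among markers of other cells there were 4 higher and 0 lower of 14 endothelial markers, 1 higher and 0 lower of 9 cholangiocyte markers (0 and 0 without weights), 0 higher and 2 lower of 6 pancreatic acinar markers (0 and 1 without weights), 0 higher and 1 lower of 7 red blood cell markers and 0 higher and 0 lower of 4 skeletal muscle markers. With the signal scaled to the 75th percentile the counts higher and lower became 2 and 20 for complement and coagulation, 6 and 6 for the proteasome, 6 and 3 for Nrf2 targets, 5 and 5 for acute-phase proteins, 5 and 5 for glutathione S-transferases, 3 and 3 for hepatokines, 3 and 5 for nuclear receptors and 1 and 5 for SREBP2 regulators.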
